A study of Homo sapiens with 6 samples.

Results

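The BCL2 family of apoptosis regulators was followed here through 10 genes, chosen by name from the table of 30327 genes, in SK-BR-3 cells given an siRNA against GRB2. The 10 comprise 3 anti-apoptotic genes (BCL2, BCL2L1 and MCL1) and 7 pro-apoptotic genes, of which BCL2L11, BBC3, PMAIP1, BID and BAD are BH3-only genes and BAX and BAK1 are effectors. All 10 were in the table and had enough reads to be tested. SK-BR-3 is an established breast cancer cell line that overexpresses HER2, and GRB2 is the adaptor protein that links activated receptors such as HER2 to RAS signalling. Poly(A) RNA was sequenced in 6 libraries. In 3 of them the cells had received a control siRNA without a target (si_NC), and in the other 3 they had received the GRB2 siRNA (si_GRB2). The study's methods name Lipofectamine RNAiMAX as the transfection reagent, and the labels name no other genotype or agent for either group. The descriptions of the treated libraries say si_GRB2, whereas their titles and characteristics name GRB2 overexpression. The list of groups in the study's methods also calls the treated RNA-seq samples a GRB2 overexpression group, while its results describe a knockdown. Only 1 sequence of an siRNA to GRB2 is given in the methods, although the study prepared RNA with more than 1 such siRNA, and the labels do not say which was in the sequenced libraries. What the loss of GRB2 does and what the siRNA does to other mRNAs cannot be told apart. Nothing in the labels says that the replicates came from separate cultures, so the p-values measure the spread between these libraries, which may be technical.

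BCL2 family proteins decide whether the outer membrane of the mitochondrion stays intact. The effectors BAX and BAK1 form pores in it and release cytochrome c, anti-apoptotic members bind and restrain them, and BH3-only proteins sense stress and either neutralise the anti-apoptotic members or activate the effectors. In HER2-driven cells, RAS-ERK and AKT signalling are known to act on this balance, since ERK marks the BCL2L11 protein (BIM) for degradation and AKT and RSK phosphorylate BAD, which then stays bound to 14-3-3 proteins. Much of this control is exerted on proteins, which were not measured here.

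Reads counted on genes ran from 24810378 to 28532480 per library. GRB2 had 124, 129.5 and 126 CPM (a gene's reads relative to the TMM-scaled library total) in si_NC and 27.8, 28.1 and 29.6 CPM in si_GRB2, so every library described as si_GRB2 had less GRB2 mRNA than every control, which goes against the word overexpression in the titles. In edgeR's quasi-likelihood test its log2 fold change (log2FC, si_GRB2 over si_NC) was -2.15, with a standard error (SE) of 0.04 and an adjusted p of 3.87e-15. Of 10 markers of SK-BR-3 cells, 9 had at least 1 CPM in every library. Their summed level lay between 19715 and 20185 CPM in si_NC and between 16505 and 17179 CPM in si_GRB2, and of 9 tested markers 6 fell and 1 rose, with a median log2FC of -0.23. ERBB2, the HER2 gene, had a mean of 3499 CPM in si_NC and 4140 CPM in si_GRB2. The SK-BR-3 marker that stayed under 1 CPM was CDH1, with means of 0.0606 CPM in si_NC and 0.0518 CPM in si_GRB2. The 13 markers of other cells summed to between 26.8 and 28.2 CPM in si_NC and between 16.9 and 17.9 CPM in si_GRB2. Between 1 and 3 of these 13 markers were at 0 in each library. Most of that difference lay in KRT5, a basal keratin, with means of 17.1 and 8.43 CPM, and the part of either marker list in the results below was not tested. Mitochondrially encoded genes took between 8.66% and 9.02% of reads in si_NC and between 7.59% and 7.80% in si_GRB2.

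The members differed widely in level. Levels are given here as the authors' FPKM, fragments scaled by a length per gene and by sequencing depth. That length went with the bases covered by the exons of all annotated transcripts, as in MCL1 (6222), BCL2L1 (4197) and BAD (1708). The order of the genes, and sums and ratios between them, thus depend on the annotation as well as on the RNA. In si_NC, MCL1 was the most abundant at 40.8 ± 1.46 FPKM (SD, n = 3), followed by BAK1 at 30.5 ± 0.974, BAD at 18.5 ± 0.461, BCL2L1 at 15.9 ± 1.17, BAX at 11.8 ± 0.578 and BID at 7.68 ± 0.451 (SD, n = 3 each). BCL2L11 at 3.17 ± 0.214 FPKM, BBC3 at 1.51 ± 0.0473 FPKM and PMAIP1 at 0.603 ± 0.0945 FPKM were lower (SD, n = 3 each). BCL2, the founding member of the family, was lowest at 0.0667 ± 0.0208 FPKM (SD, n = 3) and had 149 reads over the 6 libraries, against 44986 for MCL1. No neighbours in this order overlapped between their si_NC libraries. In si_GRB2 the order was the same except that BCL2L1 (17.1 ± 0.289 FPKM) and BAD (16.6 ± 0.115 FPKM, SD, n = 3 each) changed places. Their si_GRB2 libraries lay close but did not overlap, with the lowest for BCL2L1 at 16.80 FPKM and the highest for BAD at 16.74 FPKM. MCL1 therefore made up between 71.1% and 72.8% of the summed FPKM of the 3 anti-apoptotic genes in the si_NC libraries. The counts are per gene and add up all isoforms, so the short, pro-apoptotic splice forms of BCL2L1 and MCL1 are included in these levels.

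**Figure D1:**
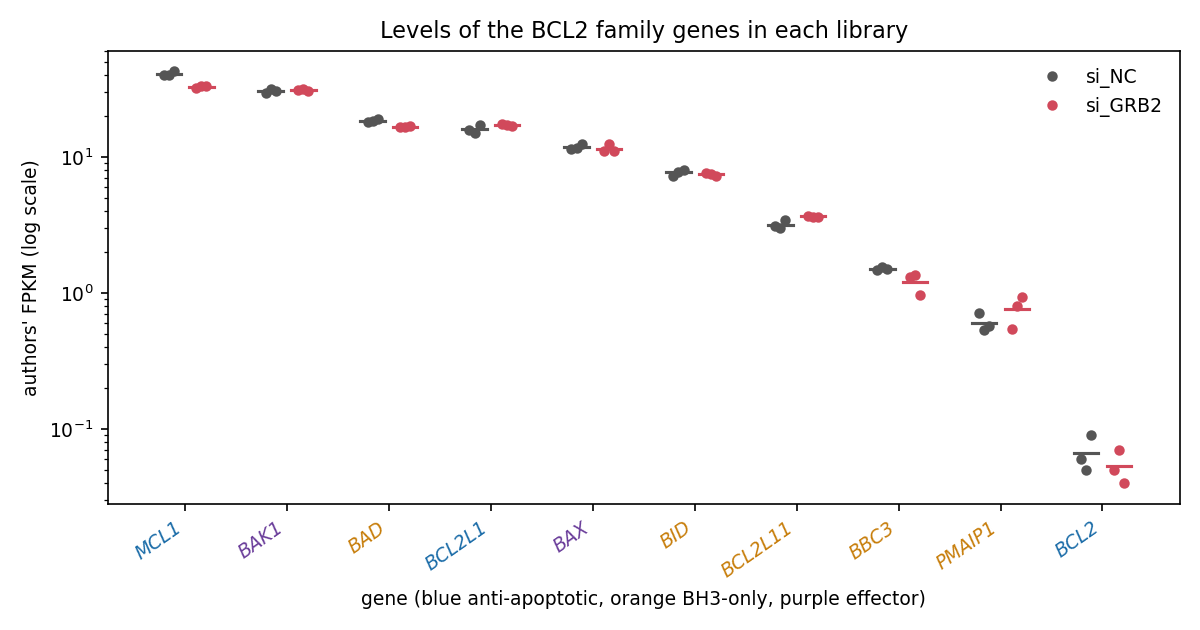
Authors' FPKM (log axis) of the 10 BCL2 family genes, 1 point per library and a bar at each group mean, with si_NC in grey and si_GRB2 in red, ordered by the si_NC mean. MCL1 leads in both groups, at a mean of 40.8 and 32.8 FPKM, and BCL2 is lowest, at 0.0667 and 0.0533 FPKM.

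In the comparison of si_GRB2 with si_NC, MCL1 and BAD fell and BCL2L11 rose, while the other 7 members did not pass the test. A gene passed when edgeR gave an adjusted p under 0.05, where the Benjamini-Hochberg adjustment covered all 15801 genes tested. At this limit 30.6% of all tested genes passed, 15.2% higher and 15.5% lower in si_GRB2, so 3 of 10 members lay at the background share. The split of all calls depended on scaling, with 49.5% of them higher here and 66.5% higher when libraries were scaled by their totals alone. None of the 10 (0) was a DEG, defined here as a 1.5-fold change in either direction together with an adjusted p under 0.01, against 2.52% of tested genes. DESeq2 gave 0 DEGs among them too, and 4 members had an unadjusted p under 0.05 by either tool. Values of both groups did not overlap for 4 members (MCL1, BCL2L11, BBC3 and BAD), whereas 42.3% of tested genes had no overlap. The median log2FC of the 10 was -0.08, against 0.0019 over all tested genes.

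MCL1 fell the most among the members that passed. It binds BAK1 and several BH3-only proteins, and both its mRNA and its protein turn over fast. Its gene (ENSG00000143384.14) is at chr1:150560895-150579738 (GRCh38, minus strand). MCL1 had 319, 313 and 316 CPM in si_NC and 247, 244 and 248 CPM in si_GRB2. Every si_GRB2 library was thus below every si_NC library, and the gap was far wider than the spread within either group. The means were 316 ± 3.11 CPM and 246 ± 1.90 CPM (SD, n = 3 each). MCL1 fell by 22.0% (95% interval from -24.9% to -19.0%), a log2FC of -0.36 (SE 0.03, edgeR adjusted p = 3.31e-08). In these bulk libraries, fewer cells that express a gene and less of its RNA per cell cannot be told apart. ADAMTSL4 lies on the opposite strand, with reads equal to 24.0% of those of MCL1 and a log2FC of -0.83 (edgeR adjusted p = 8.4e-09). The exons of the 2 genes share 43 of the 6222 exonic bases of MCL1. The study's methods describe strand-specific libraries, but whether the counting used strand is not given in the sources used here. ADAMTSL4-AS1 lies on the same strand as MCL1 and shares 328 of the exonic bases of MCL1. It had reads equal to 1.66% of those of MCL1 and a log2FC of -0.73 (edgeR adjusted p = 0.0231). The share of the reads of either gene in the values of MCL1 was not tested.

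BCL2L1, which encodes BCL-XL, did not follow MCL1. It had 84.1, 78.4 and 86.2 CPM in si_NC and 90.9, 85.2 and 84.3 CPM in si_GRB2, and the groups overlapped. Its log2FC was 0.07 (SE 0.04, edgeR adjusted p = 0.28), with a 95% interval of the difference from -1.68% to 11.3%. BCL2 itself had 26, 21 and 38 reads in si_NC and 21, 27 and 16 reads in si_GRB2. At this depth no difference was detectable, since the interval of its log2FC of -0.34 ran from -0.93 to 0.25 (edgeR adjusted p = 0.405). The median log2FC of the 3 anti-apoptotic genes was -0.34. That median was the value of BCL2, the gene with the fewest reads, and it moved to -0.10 with si_NC replicate 3 left out and to -0.19 with si_GRB2 replicate 3 left out.

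Among the BH3-only genes, BAD fell. BAD binds BCL-XL and BCL2 when it is not phosphorylated, and its gene (ENSG00000002330.14) is at chr11:64269830-64284704 (minus strand). It had 39.7, 39.3 and 38.8 CPM in si_NC and 35.2, 33.6 and 34.2 CPM in si_GRB2. The groups were separate, with means of 39.3 ± 0.449 and 34.3 ± 0.784 CPM (SD, n = 3 each). BAD fell by 12.6% (95% interval from -17.9% to -6.94%), a log2FC of -0.19 (SE 0.04, edgeR adjusted p = 0.00233). GPR137 overlaps it on the opposite strand over 404 of its 1708 exonic bases, with more reads than BAD (124% of its reads) and a log2FC of -0.14 (edgeR adjusted p = 0.0185). The share of these reads in the values of BAD was not tested.

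BCL2L11 was the only member of the 10 that passed the test upward. It encodes BIM, which can both neutralise every anti-apoptotic member and activate the effectors, and its gene is at chr2:111119378-111168444 (plus strand). It had 26.3, 25.2 and 27.2 CPM in si_NC and 30.7, 28.3 and 28.9 CPM in si_GRB2. The lowest si_GRB2 library lay just above the highest si_NC library. The log2FC was 0.16 (SE 0.05, edgeR adjusted p = 0.0276), which is a rise of 11.7% with a 95% interval from 3.50% to 20.5%. This call rested on single libraries. The adjusted p in edgeR was 0.0739 when si_NC replicate 1 was left out, 0.138 when si_NC replicate 2 was left out and 0.119 when si_GRB2 replicate 1 was left out, and with all libraries it was 0.101 in DESeq2. The lncRNA MIR4435-2HG overlaps BCL2L11 on the opposite strand over 727 of its 6742 exonic bases. Its reads equal 67.9% of those of BCL2L11 and it fell (log2FC -0.40, edgeR adjusted p = 0.000544). The share of these reads in the values of BCL2L11 was not tested.

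BBC3 and PMAIP1 encode PUMA and NOXA, the BH3-only proteins best known as targets of p53. BBC3 had 5.99, 6.24 and 5.67 CPM in si_NC and 5.21, 5.10 and 3.67 CPM in si_GRB2. Replicate 3 of si_GRB2 was well below the other two, and all 3 lay below every si_NC library. The log2FC of -0.35 (SE 0.14) did not pass the test (edgeR adjusted p = 0.0643), without si_GRB2 replicate 1 it did (-0.44, edgeR adjusted p = 0.0482), and without si_GRB2 replicate 3 it shrank to -0.21 (edgeR adjusted p = 0.261). PMAIP1 had 56, 37 and 42 reads in si_NC and 37, 57 and 62 reads in si_GRB2. The groups overlapped, and the interval of its log2FC of 0.27 ran from -0.19 to 0.74 (edgeR adjusted p = 0.392), so at 291 reads over the 6 libraries a difference of that size was not detectable. BID, which caspase-8 cleaves to carry the death receptor signal to mitochondria, had 40.8, 43.3 and 42.6 CPM in si_NC and 42.2, 39.1 and 38.2 CPM in si_GRB2. Its log2FC was -0.08 (SE 0.05, edgeR adjusted p = 0.215), with a 95% interval of the difference from -11.9% to 1.22%.

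The 2 effectors did not pass the test. BAX had 37.7, 37.6 and 38.5 CPM in si_NC and 35.4, 38.0 and 34.2 CPM in si_GRB2, a log2FC of -0.08 (SE 0.05, edgeR adjusted p = 0.228). Its groups overlapped through si_GRB2 replicate 2. BAK1 had 83.5, 87.1 and 81.3 CPM in si_NC and 85.6, 81.9 and 80.2 CPM in si_GRB2, a log2FC of -0.02 (SE 0.04, edgeR adjusted p = 0.704). The 95% intervals of the differences were narrow, from -11.8% to 1.38% for BAX and from -7.10% to 4.13% for BAK1. The sign of the BAK1 value turned to 0.03 with library totals and to 0.02 with FPKM.

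**Figure D2:**
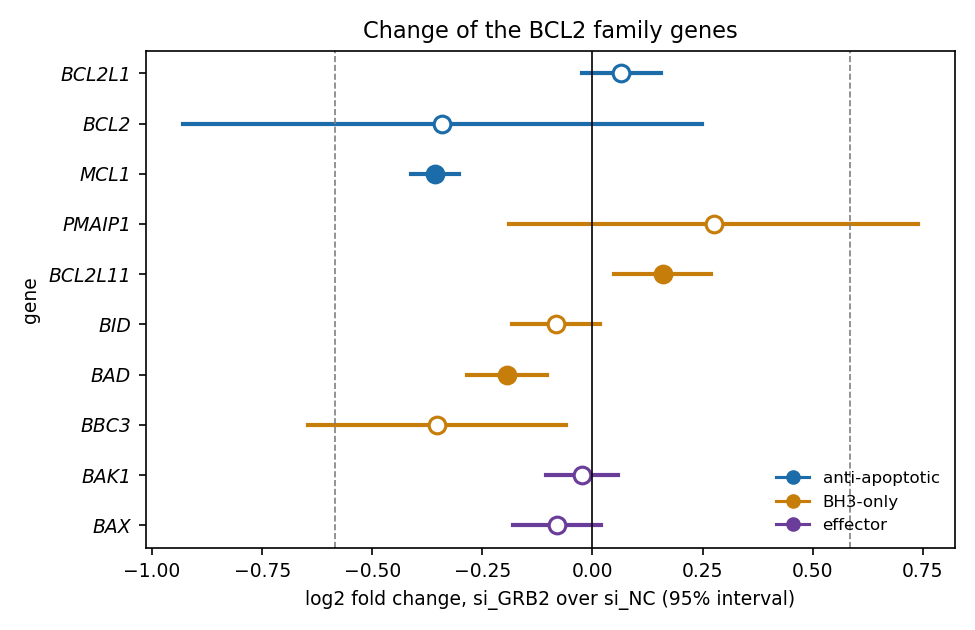
Log2 fold change (si_GRB2 over si_NC, edgeR) of each member with its 95% interval, coloured by role, with filled points for an adjusted p under 0.05 and dashed lines at a fold change of 1.5. MCL1 (-0.36) and BAD (-0.19) lie left of 0 and BCL2L11 (0.16) right of it, and the widest intervals belong to BCL2 and PMAIP1, the members with the fewest reads.

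Setting the anti-apoptotic genes against the pro-apoptotic genes, 1 of 3 anti-apoptotic members fell and 0 rose. Of the 7 pro-apoptotic members 1 fell and 1 rose, and their median log2FC was -0.08. Over all tested genes 15.5% fell and 15.2% rose, so counts this small do not set the 2 sides apart. In the authors' FPKM, the 3 anti-apoptotic genes summed to 55.6, 54.9 and 59.7 in si_NC and to 49.3, 50.5 and 50.1 in si_GRB2. These sums did not overlap between the groups, and MCL1 carried the difference, since BCL2L1 was not lower. The 7 pro-apoptotic genes summed to 71.3, 74.1 and 75.7 FPKM in si_NC and to 71.7, 73.6 and 70.9 FPKM in si_GRB2, and there the groups overlapped. The FPKM scale the libraries otherwise than TMM does. Over all genes with a mean FPKM of at least 0.5, the median log2FC was 0.034 on log2(FPKM + 1), against 0.0019 in edgeR. Whether sums overlap can depend on this scaling, and sums on the TMM scale were not made. Ratios within a library do not depend on it. Within them, the BH3-only genes summed to 31.4 ± 1.00 FPKM in si_NC and 29.7 ± 0.196 FPKM in si_GRB2 (SD, n = 3 each), without overlap. The effectors BAX and BAK1 alone summed to 42.3 ± 1.31 FPKM in si_NC and 42.4 ± 1.23 FPKM in si_GRB2 (SD, n = 3 each). The ratio of the anti-apoptotic to the pro-apoptotic sum was 0.770 ± 0.0256 in si_NC and 0.693 ± 0.0123 in si_GRB2 (SD, n = 3 each), with no overlap between the groups. Sums of mRNA do not weigh the members by the affinity of their proteins, and no test was made over the members.

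MCL1 had 2.57 ± 0.108 times the FPKM of BCL2L1 in si_NC and 1.92 ± 0.0752 times in si_GRB2 (SD, n = 3 each). MCL1 made up 71.9% ± 0.862 of the anti-apoptotic sum in si_NC and 65.6% ± 0.894 in si_GRB2 (SD, n = 3 each). The ratio of MCL1 to BCL2L11 lay between 12.5 and 13.3 in si_NC and between 8.61 and 9.22 in si_GRB2. The ratio of MCL1 to BAK1, the effector that it binds, was 1.34 ± 0.0561 in si_NC and 1.06 ± 0.0356 in si_GRB2 (SD, n = 3 each). Within the BH3-only genes, the ratio of BAD to BCL2L11 was 5.88, 6.08 and 5.57 in si_NC and 4.46, 4.62 and 4.61 in si_GRB2. In each of these ratios every si_NC library was above every si_GRB2 library. The ratios come from the same libraries as the calls of MCL1, BAD and BCL2L11, so their separation largely restates those calls and is no further evidence. The ratio of BAX to BCL2L1, a pro-apoptotic to an anti-apoptotic gene, was also lower in si_GRB2. It was 0.744 ± 0.0302 in si_NC and 0.671 ± 0.0477 in si_GRB2 (SD, n = 3 each), and neither gene passed the test. The groups were barely separate, with si_NC replicate 3 lowest of its group at 0.7255 and si_GRB2 replicate 2 highest of its group at 0.7239. Relative to the pro-apoptotic side, the mean ratio of BAX to BCL2L1 moved the other way from the ratios of MCL1 to BCL2L11 and to BAK1.

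**Figure D3:**
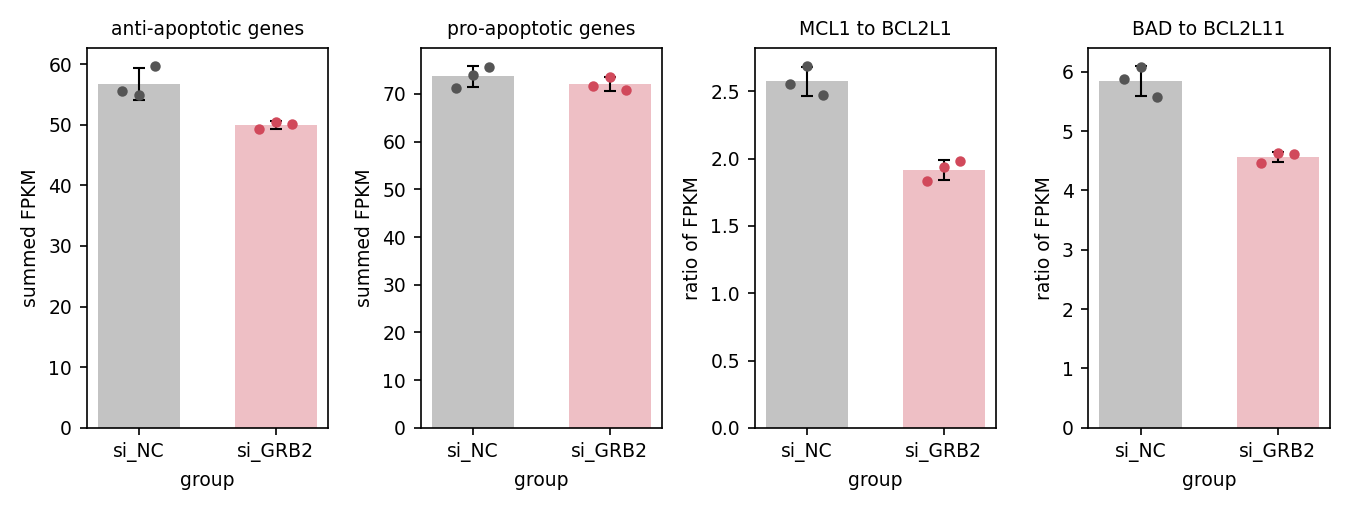
From left to right, the summed FPKM of the 3 anti-apoptotic genes, the summed FPKM of the 7 pro-apoptotic genes, the ratio of MCL1 to BCL2L1 and the ratio of BAD to BCL2L11, with 1 point per library, bars for the group mean and error bars for the SD (n = 3). The si_GRB2 libraries are lower in every panel but the second, where the groups overlap on the FPKM scale, which is not TMM-scaled.

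The 3′ UTRs of the members, taken from the Ensembl canonical transcripts of GENCODE 44 (GRCh38), ran from 162 bases for BAX to 5279 bases for BCL2. An siRNA can also lower transcripts whose 3′ UTR pairs with positions 2 to 8 of its guide strand. The letters that would pair with the siRNA to GRB2 printed in the methods, which may not be the one in these libraries, ACAGATC on the transcript strand, were in 0 of the 10 members, MCL1 and BAD included, and in 8.12% of 12690 tested genes with a 3′ UTR. The letters for the control siRNA, TGTCACG, were also in 0 of the 10 and in 2.98% of tested genes. The AU-rich pentamer ATTTA, common in short-lived mRNAs, was found 10 times in MCL1, 8 times in BCL2L11, 13 times in BCL2, 5 times in PMAIP1, 3 times in BCL2L1 and 2 times in BID. BAD, BAX, BAK1 and BBC3 had 0, and 71.1% of tested genes held at least 1. Of the members that passed the test, MCL1, which fell, and BCL2L11, which rose, hold several such pentamers, and BAD, which fell, holds 0. The part of these pentamers in the changes was not tested.

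The genes around the family were described with 81 further genes in 6 lists, of which 67 had enough reads to be tested. Of these, 15 rose and 13 fell, a share of 41.8% against 30.6% of all tested genes, with a median log2FC of 0.0005. With library totals in place of TMM, 21 rose and 11 fell. By list, the share that passed with TMM ran from 16.7% for the apoptosome and caspases to 58.3% for the mitochondrial partners. Just 1 of the 67 was a DEG, PIM1, which was lower.

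Among the other BCL2 family genes, 3 of 9 rose and 1 fell. BNIP3L and BNIP3, receptors for the removal of mitochondria by autophagy, rose by log2FC values of 0.46 and 0.23 (edgeR adjusted p = 0.000333 and 0.000385). BCL2L13, another mitochondrial receptor of that kind, rose by 0.24 on the log2 scale (edgeR adjusted p = 0.000351). BMF, a BH3-only gene whose protein is held by a dynein light chain, fell from 16.3 ± 0.994 to 12.98 ± 0.994 CPM (SD, n = 3 each), a log2FC of -0.33 (edgeR adjusted p = 0.00324). The partner that holds it, DYNLL2, rose by 0.35 on the log2 scale (edgeR adjusted p = 1.14e-05). HRK was not among the genes of the table used here, and BCL2A1, BCL2L10 and BCL2L14 had too few reads.

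Downstream of the effectors, 0 of 6 tested apoptosome and caspase genes rose and 1 fell. CYCS encodes cytochrome c, the protein whose release through BAX and BAK1 pores starts the apoptosome. It fell from 856 ± 25.5 to 662 ± 29.7 CPM (SD, n = 3 each), a log2FC of -0.37 (SE 0.03, edgeR adjusted p = 2.09e-07).

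Of 7 tested IAPs and their antagonists, BIRC2 rose (log2FC 0.25, edgeR adjusted p = 0.00337) and BIRC3, a close relative, fell (-0.58, edgeR adjusted p = 0.0201) at a mean of 2.57 CPM in si_NC. Of 7 tested death receptor genes, TNFRSF1A (0.25, edgeR adjusted p = 0.000221) and TNFRSF10B (0.17, edgeR adjusted p = 0.0245) rose, and CFLAR, the inhibitor of caspase-8 activation, fell (-0.13, edgeR adjusted p = 0.0308).

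Of 26 tested regulators of the member proteins, 5 rose and 6 fell. PIM1, a kinase that phosphorylates BAD, fell from 3.05 ± 0.276 to 1.64 ± 0.551 CPM (SD, n = 3 each), a log2FC of -0.90 (SE 0.21, edgeR adjusted p = 0.00384). RPS6KA1, the kinase RSK1, which also phosphorylates BAD, rose by 0.27 on the log2 scale (edgeR adjusted p = 7.33e-05). FOXO1, a forkhead factor, fell by 0.41 on the log2 scale (edgeR adjusted p = 0.00264). Of 12 mitochondrial partners, 4 rose and 3 fell, led by MFN1 (0.42, edgeR adjusted p = 1.29e-07), a mitofusin, and SLC25A4 (-0.54, edgeR adjusted p = 9.91e-05), an ADP/ATP carrier. OPA1, which shapes the cristae, rose by 0.23 (edgeR adjusted p = 0.000228), and VDAC1, a channel of the outer membrane, fell by 0.20 on the log2 scale (edgeR adjusted p = 2.5e-05).

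**Figure D4:**
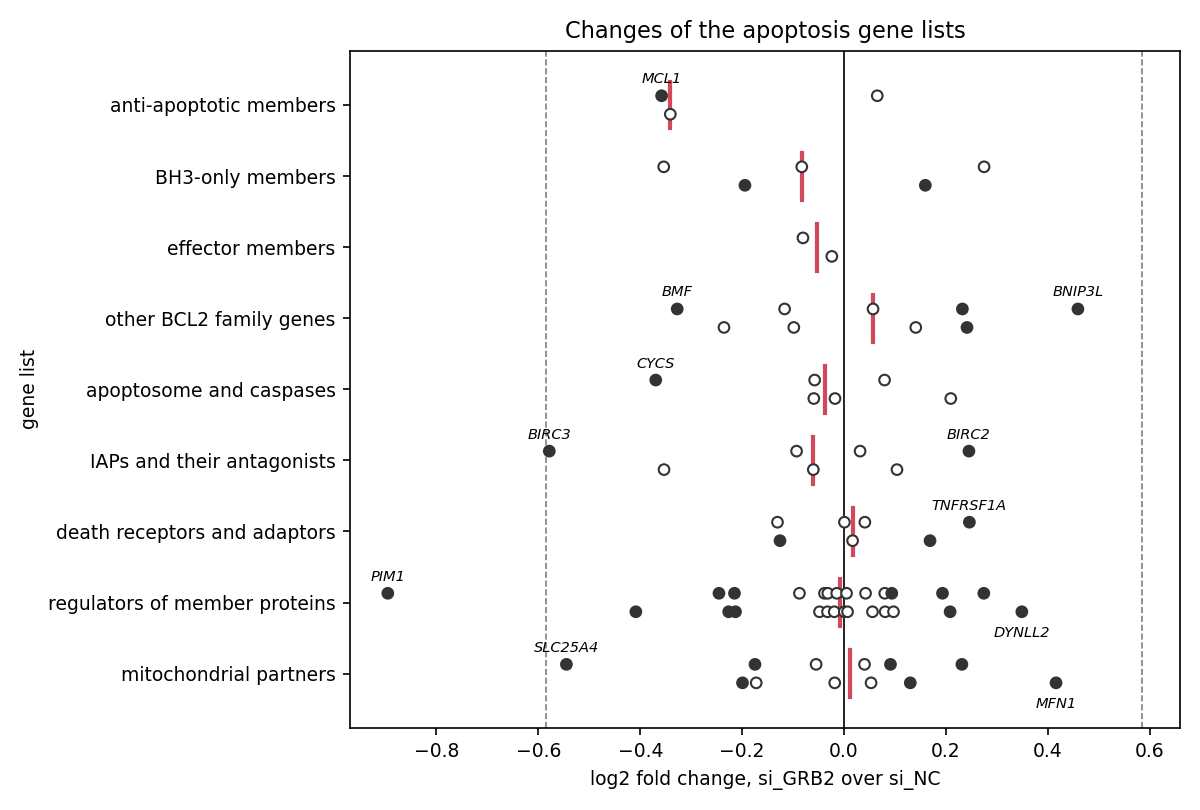
Log2 fold change (si_GRB2 over si_NC, edgeR) of every tested gene of each list, with filled points for an adjusted p under 0.05, red bars at each list's median and dashed lines at a fold change of 1.5. The outermost genes are BNIP3L at 0.46 and PIM1 at -0.90, and the list medians lie near 0 except that of the 3 anti-apoptotic members (-0.34). That median is the value of BCL2, which did not pass the test and had 149 reads over the 6 libraries.

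Of the 67 further genes with a 3′ UTR, 8 (11.9%) held the letters ACAGATC there, against 8.12% of all tested genes with a 3′ UTR. Of these 8, 5 fell (CYCS, BMF, SLC25A4, VDAC1 and FOXO3), 0 rose and 3 did not pass the test (YWHAG, USP9X and HUWE1). Of the 59 without the letters, 8 fell and 15 rose. Over all tested genes with a 3′ UTR, the median log2FC was -0.056 for the 1030 with the letters and 0.0076 for the others. The sites of CYCS and BMF, the cytochrome c gene and the BH3-only gene nearest to the members, are shown on the transcript strand, with the 7 bases that can pair with the siRNA guide in capitals. They lie within exons, in the 3′ UTRs, at chr7:25123073-25123101 and chr7:25122819-25122847 (both minus strand) for CYCS and at chr15:40088906-40088934 (minus strand) for BMF in GRCh38.
CYCS, first site: tctcacatcttACAGATCtataaggtcac
CYCS, second site: aaaagaaaaccACAGATCatgactttttg
BMF: gaagttggtcaACAGATCtggtgagggaa
A match of letters does not show that the siRNA acted there, and the part of such pairing in these falls was not tested.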

How the data were processed

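The deposited tables hold raw counts, the authors' number of uniquely mapped reads per gene for 30327 genes, and the authors' FPKM for 29912 genes. Per the study's methods, FASTX-Toolkit was used for trimming and HISAT2 for alignment to GRCh38. The counting tool, its strand setting and the annotation release are not given in the sources used here. Here, si_GRB2 was compared with si_NC by quasi-likelihood in edgeR 4.0.16 (R 4.3.3), with TMM scaling, no covariate and Benjamini-Hochberg adjustment over the 15801 genes that filterByExpr left. Each standard error was derived from the estimate and its F statistic, and 95% intervals from the t distribution with the degrees of freedom of the fit. CPM are TMM-normalized. The tests were tried on simulated data first. With 3 libraries against 3, an exact permutation test of a single gene could not give a p below 0.1 (two-sided), so none is given.

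The members and gene lists were chosen with earlier results of these data known. Some apoptosome and caspase genes are not reported here. The other genes named are, per list, the DEGs and up to 4 genes with the largest change among those past the test, and FOXO3, YWHAG, USP9X and HUWE1 were named after their 3′ UTRs were searched, KRT5, CDH1, DIABLO and BCL2L2 after their values were seen. SLC25A6 is listed 2 times (copies on X and Y), and its first listing was used. Seed letters were taken from the siRNA sequences in the study's methods, and the labels do not tie that siRNA to these libraries. Alternatives were DESeq2 1.42.0, other scalings and filters, a replicate block, limma 3.58.1 on log2(FPKM + 1) or log2(FPKM + 0.1) with a mean FPKM of at least 0.5 or no filter, edgeR's glmTreat, and leaving out each library. Same-group libraries differed by more than sampling noise.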

Additional observations from a re-analysis of the deposited data

How the results depend on the processing

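GRB2, MCL1 and BAD kept their direction and passed the test under all 15 alternatives, with log2 fold changes from -0.37 to -0.31 for MCL1 and from -0.21 to -0.14 for BAD. Over the members' 148 refits, 135 kept direction and side of the threshold, 7 lost the call (all of them BCL2L11), 2 gained it (both BBC3) and 4 turned the sign (all of them BAK1). The BAK1 value was 0.026 with library totals in place of TMM and 0.019 in each fit on FPKM, where its adjusted p-values (limma) were at least 0.786. DESeq2 and each fit of limma on FPKM left 0 members higher, in place of 1, and leaving out single libraries gave between 0 and 1, with BCL2L11 lost. Members that were DEGs stayed at 0 in every alternative, glmTreat included. The median of the pro-apoptotic members was -0.030 with library totals, -0.036 with log2(FPKM + 1), filtered or not, and -0.039 with log2(FPKM + 0.1). The median of the anti-apoptotic members was -0.10 with log2(FPKM + 1), -0.10 with log2(FPKM + 0.1) and, where low FPKM were kept, -0.018, and without single libraries it lay between -0.37 and -0.10. The first 2 of these fits had no value for BCL2, which fell under the filter. Of the other apoptosis genes, 8 fell with FPKM and a filter, at either pseudocount. With FPKM and no filter 9 rose and 2 fell. The cause was not tested. The same replicate number did not pair the libraries (correlations of deviations across genes of 0.23, -0.09 and 0.08 for numbers 1, 2 and 3), and not every library correlated best with its own number. With the replicate block, 3 members were lower, BBC3 being added (log2 fold change -0.36, adjusted p = 0.0272, edgeR), and 4807 genes in all passed in place of 4838. Counts of calls higher made up 62.8% with FPKM and a filter. BCL2 and PMAIP1 had too few reads for differences of the size seen in MCL1.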

Other observations

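Of the listed genes that had enough reads to be tested, DIABLO and BCL2L2 are examples that overlap a more abundant gene on their own strand. DIABLO, whose protein antagonises IAPs, had 166 reads over the 6 libraries, while an overlapping protein-coding gene on its strand (ENSG00000284934) had 4962. BCL2L2, an anti-apoptotic relative of BCL2L1, had 7085 reads, and the read-through gene BCL2L2-PABPN1 had 26194. How reads in the overlaps were assigned is not given in the sources used here, so the levels of DIABLO and BCL2L2 are uncertain. On the log2 scale BCL2L2 differed by 0.06 (edgeR adjusted p = 0.371) and DIABLO by -0.35 (edgeR adjusted p = 0.28).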
